A study of Homo sapiens with 6 samples.

Results

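The anti-apoptotic members of the BCL2 family were examined in the established renal cell carcinoma (RCC) line SW839, with and without knockdown of the ubiquitin ligase RNF25. The 5 members were found by their symbols, *BCL2*, *BCL2L1*, *BCL2L2*, *MCL1* and *BCL2A1*, among the 30267 genes of the deposited table of normalized counts, which are read counts divided by a scaling factor for each library. All 5 were present and all 5 were among the 16554 genes that passed the filter on low values, which asked for 3 or more libraries with a normalized count of 10 or higher. Total RNA was sequenced after depletion of ribosomal RNA in 3 libraries from cells carrying an RNF25 hairpin (shRNF25) and 3 from cells carrying a control (shControl, library names beginning with PLKO). According to the methods of the study, such lines were made by lentiviral infection with pLKO-based plasmids and puromycin selection. A single hairpin name stands behind the shRNF25 libraries, and the treatment text of all 6 samples speaks of the shRNF25 plasmid, so the groups were taken from the titles, with which the genotype field and the library names go together. The study asked how RNF25 restrains apoptosis and whether NF-κB, a transcription factor family that drives survival genes, takes part.

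Proteins of the BCL2 family decide whether the outer membrane of the mitochondrion is opened during apoptosis. The anti-apoptotic members hold the pore-forming effectors BAX and BAK in check and bind the BH3-only proteins, which are the sensors of stress and damage. Cells differ in which anti-apoptotic member they rely on, and drugs that mimic the BH3 segment are built against single members, such as ABT-199 against BCL-2.

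The 5 members share the BH1 segment, part of the groove that receives the BH3 segment of their partners. The coding stretches around its core are shown because they tell how far the transcripts resemble each other, which bears on whether reads could have been counted for the wrong member. Capitals mark the codons for the conserved asparagine, tryptophan, glycine and arginine, found by translating in frame the transcript with the longest coding sequence of each gene in GENCODE 29 (GRCh38).
BCL2: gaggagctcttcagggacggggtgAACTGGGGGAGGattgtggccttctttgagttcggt
BCL2L1: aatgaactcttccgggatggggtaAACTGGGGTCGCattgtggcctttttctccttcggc
BCL2L2: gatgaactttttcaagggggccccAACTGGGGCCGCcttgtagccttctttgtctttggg
MCL1: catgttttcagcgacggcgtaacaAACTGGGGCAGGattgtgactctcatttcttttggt
BCL2A1: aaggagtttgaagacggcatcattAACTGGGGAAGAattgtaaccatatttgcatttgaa
These coding exon stretches lie at chr18:63318205-63318264 (minus strand, exon 1 of 2) for *BCL2*, chr20:31721778-31721837 (minus strand, exon 2 of 3) for *BCL2L1*, chr14:23308017-23308076 (plus strand, exon 3 of 4) for *BCL2L2*, chr1:150578367-150578426 (minus strand, exon 2 of 3) for *MCL1* and chr15:79970832-79970891 (minus strand, exon 1 of 2) for *BCL2A1*. Over these 60 bases, *BCL2* and *BCL2L1* were the most similar pair with 45 identical bases, and *BCL2L1* and *BCL2A1* the least similar with 30. No 50-base word of the transcript of one member was found in a transcript of another member.

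The libraries held 18647460 to 19943154 reads assigned to genes. The shControl libraries varied more than the shRNF25 libraries, with a median SD across tested genes of 0.26 against 0.096 on the log2 scale. shControl replicate 1 stood apart from the other controls, with a chi-square per degree of freedom of 60.08 and 63.2 against them where they had 12.84 between themselves. Values without it are given for *BCL2A1*, *BCL2L1* and *BCL2L2*, and for the counts on gene lists that changed without it. The control library names differ in form from each other and the shRNF25 names share 1 form, so that knockdown and any batch that ran along with it cannot be told apart. The normalized count of *RNF25* was 241.6 ± 25.7 after knockdown and 588.1 ± 92.0 in the controls (SD, n = 3 each), which is -1.27 ± 0.150 (standard error) on the log2 scale, with an adjusted p of 0.000585 from limma. *STK36*, which shares 260 of the 2323 exon bases of *RNF25* on the other strand, rose by 0.59 on the log2 scale (adjusted p = 0.0130 from limma). Of the renal epithelial markers, *KRT8*, *KRT18* and *KRT19* were abundant and *PAX8* lay between 76.7 and 140.3, whereas *CA9*, a marker of clear cell carcinoma, did not exceed 50.7 in any library and *LHX1* did not exceed 4.62. On that list *VIM*, the mesenchymal filament vimentin, rose from 355.4 ± 133.0 to 831.9 ± 43.4 (SD, n = 3 each, adjusted p = 0.00805 from limma) and *KRT19* fell by 0.47 on the log2 scale (adjusted p = 0.0278, below 0.05 in 9 of 16 alternatives). Summed fibroblast markers, nearly all *COL1A1*, were 1107.1 to 1290.8 in shControl and 865.3 to 1012.3 in shRNF25, with *COL1A2* and *DCN* at 3 reads or fewer.

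Of the 5 anti-apoptotic members, *BCL2A1* fell and *BCL2L1* rose at an adjusted p below 0.05, and *MCL1*, *BCL2L2* and *BCL2* did not pass the test. Of all 16554 tested genes, 10.8% were lower and 10.5% higher at the same threshold, 21.3% in all, and 2 of 5 members is a small count to set beside this background. With a fold change of at least 1.5 added, the criteria of the study, *BCL2A1* alone remained among the 5, against 7.1% of tested genes lower and 8.65% higher, 15.7% in all. The groups did not overlap for *BCL2A1* and *BCL2L1*, as for 42.5% of tested genes, and the log2 fold change was below 0 for *BCL2A1* and *MCL1*, as for 51.2%. The members' median log2 fold change was 0.10, and that of all tested genes was -0.01. Values are from limma on log2(normalized count + 1), a scale on which the change of a gene with few reads comes out too small, with Benjamini-Hochberg adjustment over all tested genes. In RNA from bulk cells, fewer cells expressing a gene and less RNA per cell cannot be told apart.

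**Figure D1:**
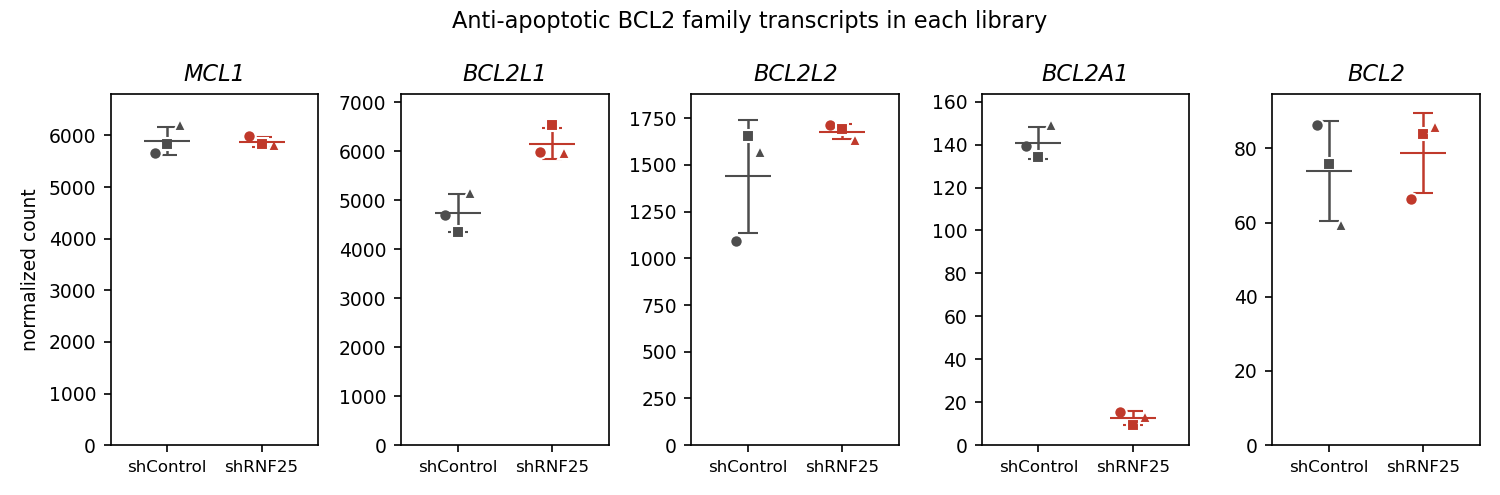
Normalized counts (y axes, linear from 0) of the 5 members in shControl (grey) and shRNF25 (red), with circles, squares and triangles for replicates 1, 2 and 3 and bars for the mean ± SD (n = 3). *BCL2A1* dropped from at least 134.4 to at most 15.5, *BCL2L1* lay higher in each shRNF25 library, and shControl replicate 1 sat apart for *BCL2L2*.

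*BCL2A1* encodes BFL-1, also called A1, a small anti-apoptotic member that is a known NF-κB target gene and is best studied in blood cells and melanoma. It lies on chromosome 15 from 79960889 to 79971446 on the minus strand (GENCODE 29, GRCh38). Its normalized count was 139.3, 134.4 and 148.9 in shControl replicates 1, 2 and 3. In shRNF25 replicates 1, 2 and 3 it was 15.5, 9.24 and 13.3. The groups were far apart, and 21.8% of tested genes had all shRNF25 libraries below all controls. The mean fell from 140.9 ± 7.40 (SD, n = 3) to 12.7 ± 3.18 (SD, n = 3), which left 9.01% of the level in the controls. On the log2 scale the change was -3.40 (95% interval -3.92 to -2.88, adjusted p = 3.19e-05 from limma), and the exact permutation p over the 6 libraries, two-sided, was 0.1, the smallest that 3 libraries against 3 allow. Counting *BCL2A1* itself, 32 genes, or 0.193% of those tested, had a log2 fold change at or below this one.

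The shRNF25 values of *BCL2A1* rest on few reads, 17, 10 and 14 in replicates 1, 2 and 3, against 126, 131 and 138 in shControl. Exact Poisson 95% intervals, which cover counting error only, reached from 4.80 to 27.2 reads over the 3 shRNF25 libraries and began at 105 reads in the lowest control, so counting error leaves the groups separate. The adjusted p stayed at or below 0.000676 under all 16 alternatives, and the log2 fold change lay between -3.59 and -3.06. Without shControl replicate 1 the log2 fold change was -3.41 (adjusted p = 3.04e-05 from limma). Of the 984 words of 50 bases in its transcript, 48 are also found in *ST20*, a gene with a normalized count of 17.3 to 24.6 in the 6 libraries, whose groups overlapped.

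Since *BCL2A1* is typical of blood cells, their markers were read beside it. Of 8 blood markers on the list, 6 were in the table, and their summed normalized count was 18.3 to 33.9 in shControl and 17.2 to 29.6 in shRNF25, so that the groups overlapped. *PTPRC*, the pan-leukocyte antigen CD45, had 9.71 to 13.3 in shControl and 3.81 to 14.6 in shRNF25, and *CD3E*, a T cell gene, did not exceed 1.08 in any library. Of 4 endothelial markers, *CDH5* moved with *BCL2A1*, from 124.7 ± 65.7 to 5.89 ± 2.34 (SD, n = 3 each, adjusted p = 0.000213 from limma). The groups overlapped for *PECAM1*. *VWF* and *TEK* were lower in every shRNF25 library, but did not pass the filter on low values and were not tested. *VWF* was at 3.64 to 6.67 in shRNF25 and at least 7.18 in shControl. *TEK* was at 0.924 to 1.82 in shRNF25 and at least 3.24 in shControl. Of tested genes, 21.8% showed a separation in this direction. The summed endothelial markers were 466.8 to 681.0 in shControl and 413.7 to 558.6 in shRNF25. Their part in the fall of *BCL2A1* was not tested.

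*BCL2L1* encodes BCL-xL, and from a shorter splice form the pro-apoptotic BCL-xS, which a count per gene does not separate. It lies on chromosome 20 from 31664452 to 31723989 on the minus strand. Its normalized count was 4703.7, 4359.6 and 5144.9 in shControl replicates 1, 2 and 3. It was 5976.5, 6524.6 and 5966.9 in shRNF25 replicates 1, 2 and 3. Every shRNF25 library was above every control, a separation in this direction that 20.7% of tested genes showed. The mean rose from 4736.1 ± 393.7 to 6156.0 ± 319.2 (SD, n = 3 each), to 130.0% of the control level. Its log2 fold change was 0.38 (95% interval 0.14 to 0.62, adjusted p = 0.0323 from limma). This call is near the threshold, with an adjusted p of 0.110, 0.164 and 0.115 without shRNF25 replicate 1, 2 or 3. It was 0.0772 without shControl replicate 2 and 0.0580 without the filter on low values. Without shControl replicate 1 the log2 fold change was 0.38, with an adjusted p of 0.0115. The antisense RNA gene *ABALON* covers 1424 of the 3314 exon bases of *BCL2L1* on the other strand, but its normalized count did not exceed 3.64 in any library.

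*MCL1* encodes a short-lived anti-apoptotic protein that is controlled largely through its turnover, and lies on chromosome 1 from 150574551 to 150579738 on the minus strand. Its normalized count was 5651.0, 5840.1 and 6192.9 in shControl and 5991.0, 5826.4 and 5819.2 in shRNF25, for replicates 1, 2 and 3. All shRNF25 values fell within the range of the controls. The means were 5894.7 ± 275.0 and 5878.9 ± 97.2 (SD, n = 3 each), and the log2 fold change did not pass the test (adjusted p = 0.988 from limma). Its 95% interval reached from a fold change of 0.860 to one of 1.16. *MCL1* had the smallest standard error of the 5 members on the log2 scale, 0.0955, only slightly below 0.106 for *BCL2L1*. A change as large as that of *BCL2A1* lies outside its interval, as it does for *BCL2L1*, *BCL2L2* and *BCL2*. *ADAMTSL4-AS1* shares 2 exon bases with *MCL1* and had 4 to 10 reads.

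The ratio of *BCL2L1* to *MCL1* within a library does not depend on the scaling factor. In normalized counts it was 0.832, 0.746 and 0.831 in shControl and 0.998, 1.12 and 1.03 in shRNF25, for replicates 1, 2 and 3. It was thus higher in each shRNF25 library than in any control, with a two-sided exact permutation p of 0.1, the smallest that 3 libraries against 3 allow. Of single tested genes, 20.7% showed a separation in this direction, and no such share was taken for ratios.

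*BCL2L2* encodes BCL-w, a close relative of BCL-xL, and lies on chromosome 14 from 23298790 to 23311759 on the plus strand. Its normalized count was 1093.3, 1654.0 and 1570.4 in shControl and 1711.2, 1690.0 and 1631.9 in shRNF25, in the order of the replicate numbers. The lowest shRNF25 value was below the highest control, and shControl replicate 1 was far below the other 5 libraries. The log2 fold change was 0.24 (95% interval -0.11 to 0.60, adjusted p = 0.295 from limma). Without shControl replicate 1 it was 0.06 (95% interval -0.10 to 0.22, adjusted p = 0.563).

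The readthrough gene *BCL2L2-PABPN1*, which runs from *BCL2L2* into its neighbour *PABPN1*, shares 813 of the 4189 exon bases of *BCL2L2*, and reads there may have been counted for either gene or dropped. It had only 1 read in shControl replicate 1 and 15 to 24 reads in the other 5 libraries. *PABPN1*, which encodes a nuclear poly(A)-binding protein, had a normalized count of 506.3 in shControl replicate 1 and of 987.7 to 1158.4 in the other 5 libraries. The low value in shControl replicate 1 was therefore shared by *BCL2L2*, its neighbour and the readthrough gene, but was not particular to them. That library was also low for *BAD*, at 275.3 against 653.8 to 783.9 in the other 5. It was high for *RELA*, at 5386.8 against 2711.8 to 3490.4. On the other strand, *PPP1R3E* shares 206 exon bases with *BCL2L2* and did not pass the test, at 0.40 (adjusted p = 0.0643 from limma). *HOMEZ* overlaps *BCL2L2* with no shared exon bases and fell by 0.67 on the log2 scale (adjusted p = 0.0152 from limma).

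*BCL2* encodes BCL-2, the founding member and the target of ABT-199, and lies on chromosome 18 from 63123346 to 63320128 on the minus strand. Its normalized count was 86.2, 75.9 and 59.4 in shControl and 66.5, 84.0 and 85.8 in shRNF25, for replicates 1, 2 and 3. The groups overlapped almost fully. The means were 73.8 ± 13.6 and 78.8 ± 10.7 (SD, n = 3 each), and the log2 fold change of 0.10 did not pass the test (adjusted p = 0.763 from limma). Its direction changed without shControl replicate 3, to -0.05. With 55 to 91 reads per library the 95% interval was wide, from a fold change of 0.781 to one of 1.47. A change within these bounds, in either direction, was not resolved, and how far depth set the width was not tested.

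Levels were compared between members per kilobase of merged GENCODE 29 exons, so that comparisons between genes depend on this choice of length. In shControl, *BCL2L1* at 1429.1 ± 118.8 and *MCL1* at 1348.6 ± 62.9 normalized counts per kilobase led and on this length did not differ beyond their spread. Their transcripts with the longest coding sequence are shorter, at 2610 against 3314 bases for *BCL2L1* and 3932 against 4371 for *MCL1*. *BCL2L2* followed at 343.6 ± 72.2, *BCL2A1* at 129.4 ± 6.79 and *BCL2* at 6.28 ± 1.15 (SD, n = 3 each). In shRNF25 the order was kept, with *BCL2L1* at 1857.6 ± 96.3, *MCL1* at 1345.0 ± 22.2, *BCL2L2* at 400.5 ± 9.81, *BCL2A1* at 11.7 ± 2.92 and *BCL2* at 6.70 ± 0.906 (SD, n = 3 each). *BCL2A1* thus came close to the level of *BCL2*, the scarcest member on this length. On it, the lowest shRNF25 value of *BCL2A1* was still above the highest *BCL2* value. That order depends on the length, since the transcripts with the longest coding sequence have 1033 against 1089 bases for *BCL2A1* and 7461 against 11765 for *BCL2*. The lowest *BCL2A1* value also rests on 10 reads, with an exact Poisson interval of 4.8 to 18.4. Whether *BCL2A1* stayed above *BCL2* in every shRNF25 library was therefore not resolved.

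Of the summed per-kilobase level of the 5 members, *BCL2A1* made up 3.89% to 4.11% in the controls and 0.228% to 0.395% in shRNF25. *BCL2L1* made up 41.4% to 45.7% in the controls and 50.1% to 52.9% in shRNF25. The share of *MCL1* was 40.6% to 42.1% and 35.8% to 38.0%, although its own level did not pass the test, because the shares of a library add up to a whole. *BCL2* stayed at or below 0.236% throughout. The summed level itself was 3108.4, 3176.3 and 3486.0 in shControl and 3602.4, 3720.8 and 3540.9 in shRNF25, for replicates 1, 2 and 3.

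**Figure D2:**
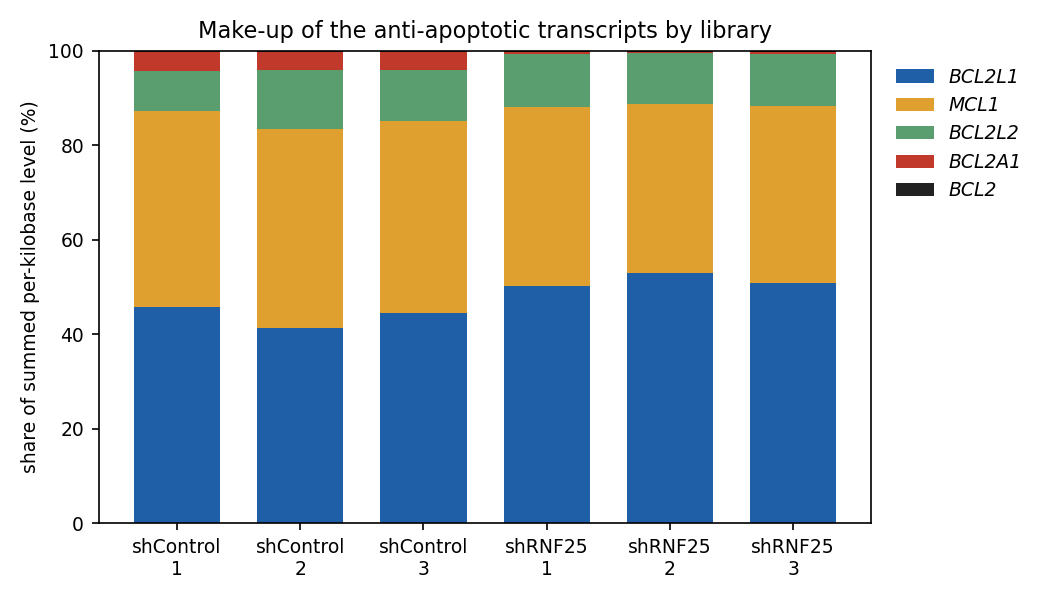
Share of each member in the summed level per kilobase of exon (y axis, percent) in each of the 6 libraries (x axis). *BCL2L1* and *MCL1* filled most of each bar, *BCL2A1* shrank from about 4% to under 0.4%, and *BCL2* was too scarce to be seen as more than a line.

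For each member, the 3 tested genes with the most similar profile were found by the root-mean-square difference of log2 values over the 6 libraries, each centred on its own mean, as a description of these libraries. For *BCL2A1* they were *AZGP1*, *IL37* and *CXCL8*, at differences of 0.231, 0.237 and 0.253. For *BCL2L1* they were *ZNF35*, *UBL3* and *ZNF358* at 0.0255 to 0.0446, for *BCL2L2* *CTNNBIP1*, *SDF2* and *SSNA1* at 0.0277 to 0.0332, for *MCL1* *CHCHD4*, *GDE1* and *LAMP1* at 0.0193 to 0.0245 and for *BCL2* *KLLN*, *CENPN* and *DZIP3* at 0.0475 to 0.0625. The differences were largest for *BCL2A1*, but its own values also spread most, with a root-mean-square of 1.71 around their mean, against 0.041 for *MCL1*. The raw differences therefore do not rank how well the members were matched.

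The proteins that oppose these members were read from lists of effectors and BH3-only genes. None of the 3 effectors passed the test, with log2 fold changes of -0.11 for *BAX*, -0.08 for *BAK1* and -0.06 for *BOK*, although 2 of the 3 fell without shControl replicate 1. Of 8 BH3-only genes, 7 were tested, 3 fell and none rose, where 10.8% of all tested genes were lower, and their median log2 fold change was -0.71. *BIK*, which acts at the endoplasmic reticulum, fell from a normalized count of 164.7 ± 22.8 to 66.5 ± 11.2 (SD, n = 3 each), a log2 fold change of -1.30 (adjusted p = 0.00162 from limma). *BMF*, a sensor linked to the cytoskeleton, fell from 318.6 ± 47.0 to 154.3 ± 22.4, at -1.04 (adjusted p = 0.00263). *BID*, which is cleaved by caspase-8 and carries the death receptor signal to mitochondria, fell from 1137.0 ± 100.0 to 693.2 ± 32.2, at -0.71 (adjusted p = 0.00264). These 3 passed the test under each of the 16 alternatives, and without shControl replicate 1 the count over effectors and BH3-only genes was 6 lower in place of 3.

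The BH3-only genes that did not pass were *BBC3* at -0.72 (adjusted p = 0.0705), *PMAIP1*, the gene of the MCL-1 and BFL-1 partner NOXA, at -0.14, *BCL2L11*, the gene of BIM, at 0.05 and *BAD* at 0.36. *HRK* did not pass the filter on low values. For *BAD*, shControl replicate 1 was at 275.3 and the other 5 libraries were at 653.8 to 783.9, and the log2 fold change turned to -0.14 without that library. Genes on both sides of the family were therefore lower in shRNF25, with the fall of *BCL2A1* on the anti-apoptotic side and those of *BIK*, *BMF* and *BID* on the BH3-only side.

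More distant relatives with a BCL2 homology segment were also listed. Of 7, 4 were tested and 2 fell, where 10.8% of all tested genes were lower. Without shControl replicate 1, 3 fell. *BNIP3*, a mitochondrial receptor for autophagy that is induced by hypoxia, fell from 2493.1 ± 528.4 to 804.3 ± 37.4 (SD, n = 3 each), a log2 fold change of -1.61 (adjusted p = 0.000176 from limma). Its relative *BNIP3L* fell from 2231.2 ± 279.6 to 832.5 ± 35.8, at -1.41 (adjusted p = 0.000112). *BCL2L12* and *BCL2L13* did not pass, at -0.14 and -0.01. *BCL2L10*, another anti-apoptotic relative that was not among the members, had normalized counts of 2.05 to 8.20 and was not tested.

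**Figure D3:**
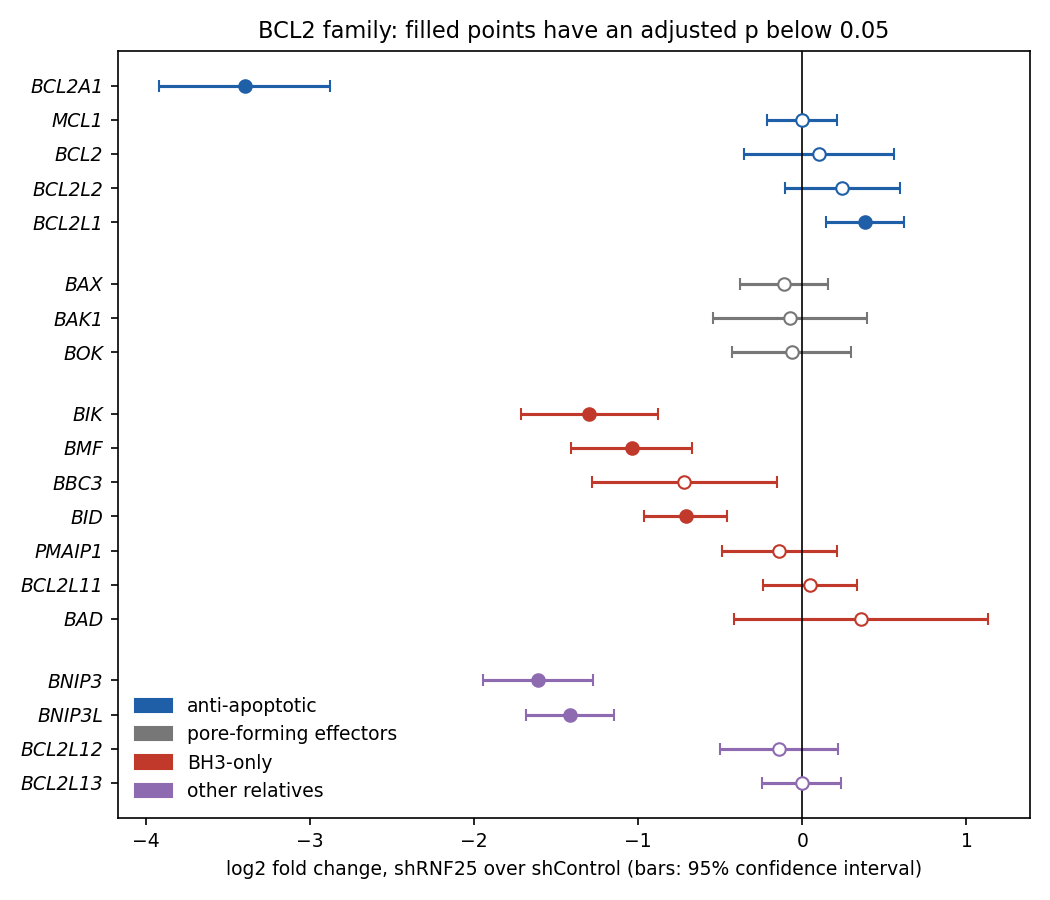
Log2 fold change of shRNF25 over shControl (x axis, bars for the 95% confidence interval from limma) for the tested genes of the BCL2 family (y axis), grouped by role. Filled points passed an adjusted p below 0.05, and *BCL2A1* at -3.40 lay well to the left of the other genes plotted, whose lowest value was that of *BNIP3* at -1.61.

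NF-κB subunits and inhibitors were listed because *BCL2A1*, *BCL2L1* and *BCL2* are known targets of the pathway. Of 9 such genes 4 fell and none rose, where 10.8% of all tested genes were lower and 10.5% higher. The median log2 fold change of the 9 was -0.43. *TNFAIP3*, the gene of the inhibitor A20, fell from 3785.9 ± 382.8 to 832.4 ± 102.0 (SD, n = 3 each), a log2 fold change of -2.19 (adjusted p = 1.64e-05 from limma). *NFKBIA*, the gene of IκBα, fell from 5994.0 ± 590.4 to 2704.1 ± 292.6, at -1.15 (adjusted p = 0.000328). *REL* at -0.85 (adjusted p = 0.0193) and *NFKBIE* at -0.58 (adjusted p = 0.0252) also fell, and *RELA*, the gene of p65, did not pass at -0.43 (adjusted p = 0.148). The count lower was 7 without shControl replicate 1, and 3 without either shControl replicate 2 or shControl replicate 3. It was 2, namely *TNFAIP3* and *NFKBIA*, when any one of the 3 shRNF25 libraries was left out.

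Of 9 other survival genes known as NF-κB targets, 3 fell and none rose, with a median log2 fold change of -0.20, where 10.8% of all tested genes were lower and 10.5% higher. Without shControl replicate 1, 4 were lower and 1 was higher. *IER3* fell by 2.06 on the log2 scale (adjusted p = 3.37e-05 from limma), *SOD2*, the mitochondrial superoxide dismutase, by 1.43 (adjusted p = 0.000928) and *BIRC3*, the gene of cIAP2, by 1.18 (adjusted p = 0.000479). *XIAP*, *CFLAR*, *BIRC2*, *TRAF1*, *TRAF2* and *GADD45B* did not pass, with values from -0.35 to 0.31. Each of these falls was smaller than that of *BCL2A1* at -3.40, and the members *BCL2L1* and *BCL2* did not share its direction, at 0.38 and 0.10.

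The windows of 300 bases around annotated starts in RefSeq (GRCh38.p14), 250 before to 50 after, were searched for the κB consensus on both strands and for TGANTCA, the AP-1 motif, which reads alike on both strands. Windows were given for *BCL2A1*, *BCL2* and both starts of *BCL2L1*. None of these 4 windows held either motif, and 11.3% and 7.71% of all 35116 windows did. This says only that these letters are not in these windows. For *BCL2A1*, *BCL2* and one start of *BCL2L1*, all 250 bases before the RefSeq start lie within annotated exons of GENCODE 29 (of the gene itself or, for *BCL2L1*, also of *ABALON*), and for the other start of *BCL2L1* 26 of them do.

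**Figure D4:**
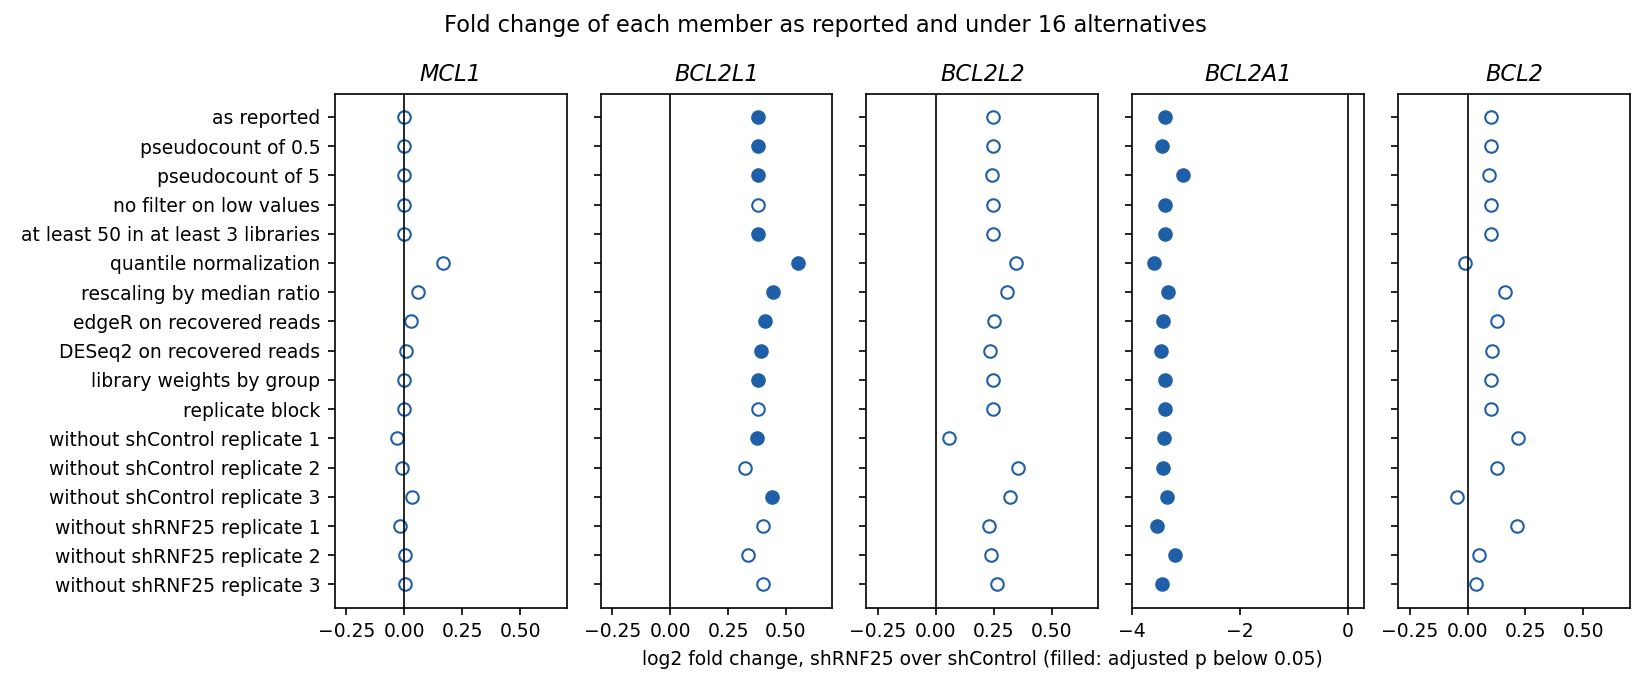
Log2 fold change of each member (x axes, filled where the adjusted p was below 0.05) as reported and under 16 alternative settings (y axis). *BCL2A1* was filled throughout between -3.59 and -3.06, *BCL2L1* stayed between 0.32 and 0.55 and was filled in 10 of 16, and *MCL1*, *BCL2L2* and *BCL2* were open throughout.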

How the data were processed

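The authors deposited 1 table of normalized counts, a signal that is a read count divided by a scaling factor for each library. The submitters' processing notes name fastp, HISAT2, HTSeq and GRCh38, and the study's methods name a stranded total RNA kit with ribosomal depletion and DESeq2. The annotation and the strand setting of the counting are not given in the sources used here. Every value was a whole multiple of the smallest step of its library (100% within 0.01 reads), and the scaling factors, 0.905 to 1.10, equaled DESeq2's size factors. Genes that reached 10 in 3 or more libraries were fitted on log2(value + 1) with limma 3.58.1 (lmFit, eBayes with trend) in R 4.3.3, 3 against 3 without covariates, and the script was tested on simulated data. Single genes were also tested by a two-sided exact permutation test.

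The members and lists were chosen with earlier results of these data known. Named genes are the members, RNF25, overlapping genes, up to 4 genes per list past an adjusted p of 0.05 and a fold change of 1.5, and the 3 closest profiles per member. Other names were chosen after their values were seen. Of the listed symbols, MARCH5 was matched as MARCHF5, and PAX2, CDH16, MS4A1 and HBB were not analysed here. Alternatives used a pseudocount of 0.5 or 5, no filter, a minimum of 50, quantile normalization, rescaling on the median ratio of genes whose mean reached 100, count tests on the recovered reads with edgeR 4.0.16 (1133 genes lower and 1525 higher past both thresholds) and DESeq2 1.42.0 (1220 and 1414), library weights by group, the replicate number as a block and each library left out. Positions are from GENCODE 29, matched by symbol.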

Additional observations from a re-analysis of the deposited data

How the results depend on the processing

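*BCL2A1* and RNF25 kept their direction and passed the test under all 16 alternatives, and *BCL2L2* stayed above 0 without passing under any. *BCL2L1* kept its direction but missed the threshold without the filter on low values (0.38, adjusted p = 0.0580), where more genes are tested, and in 4 of 6 fits that left out 1 library, which gave 0.32 to 0.44. *MCL1* did not pass anywhere and lay above 0 with quantile normalization (0.168), rescaling (0.0596), edgeR (0.0282) and DESeq2 (0.009), and at -0.0329 to 0.0331 with 1 library left out. *BCL2* did not pass anywhere, was at -0.0098 with quantile normalization and at -0.0472 to 0.218 with 1 library left out. The causes of these sign changes around 0 were not tested. The genes past both criteria numbered 1175 lower and 1432 higher, 898 higher with a minimum of 50, which tests fewer genes, and 813 to 1269 lower and 748 to 1725 higher with 1 library left out. The lowest higher counts, 748, 824 and 831, came without shRNF25 replicates 1, 2 and 3. Genes higher in shRNF25 made up 54.9% of these calls and 62.2% after rescaling.

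The replicate numbers did not pair the libraries by their values. Deviations of same-numbered libraries from their group means correlated at -0.064, -0.087 and 0.047, and shControl replicate 1 correlated best with shRNF25 replicate 2. With the replicate number as a block, *BCL2L1* had a log2 fold change of 0.38 and an adjusted p of 0.0756, the other members kept their calls, and 1193 genes were lower and 1398 higher.

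Few reads limit *BCL2A1* in shRNF25 (10 to 17 per library) and *BCL2* (55 to 91), and the spread between controls limits *BCL2L2*. Gene counts do not separate splice forms.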

Other observations

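Of 9 listed genes that act downstream of or at the mitochondrial pore, 1 fell and none rose. This share is near the 10.8% of all tested genes that were lower, with 10.5% higher. The gene was *VDAC1*, a channel of the outer mitochondrial membrane. The count was 3 lower without shControl replicate 1 or shControl replicate 3, and 0 when any one of the 3 shRNF25 libraries was left out. *VDAC1* fell from a normalized count of 6236.2 ± 292.9 to 4624.3 ± 196.9 (SD, n = 3 each), a log2 fold change of -0.43 (adjusted p = 0.0142 from limma), and it passed in 12 of 16 alternatives. *CYCS*, the gene of cytochrome c, was at -0.38 (adjusted p = 0.0502) and *APAF1*, the scaffold of the apoptosome, at -0.37 (adjusted p = 0.0921). The list's median log2 fold change was -0.17.

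Among 9 genes known to control the turnover of the MCL-1 protein, 1 fell and none rose, also near the 10.8% of all tested genes that were lower. The gene was *HUWE1*, a large ubiquitin ligase that acts on MCL-1. It went from 29530.4 ± 2560.5 to 22562.5 ± 130.2 (SD, n = 3 each), a log2 fold change of -0.38 (adjusted p = 0.0362 from limma), which was -0.02 after quantile normalization and passed in 8 of 16 alternatives. The count on this list was 2 lower without shControl replicate 1 and 0 when any one of the 3 shRNF25 libraries was left out. The deubiquitinase *USP9X*, which opposes that turnover, was at -0.24 (adjusted p = 0.145). The median log2 fold change of this list was -0.11, beside -0.003 for *MCL1* itself.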
